A study of Mus musculus with 2 samples.

Results

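The cell cycle genes described here are 43 mouse genes that drive, carry out or restrain cell division, taken by symbol from a set list, of 43346 Ensembl genes in each table. They were set in 4 classes: 6 genes of G1 and the entry into S phase, 14 genes of DNA replication, 19 genes of mitosis and 4 brakes. All 43 were found, with between 517 and 19673 expected counts per library, and all 43 were detected, at a TPM (transcript abundance scaled for length and depth) of at least 1 in both pups. Of all protein-coding genes, 61.2% were detected in this way.

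The study sequenced total RNA of the whole stomach of mice of strain B6NCrl on the day of birth, postnatal day 0. Both animals belong to the 1 group of the study, with no treatment and no engineered allele named in the labels. Pup 1 and pup 2 came from the same dam, their sex was not collected, and each gave 1 stomach and 1 library. The libraries held 51524479 and 49983574 expected counts, the authors' estimate of reads per gene. Markers of stomach lining were high, with the surface mucous gene Tff1 at a TPM of 12948 ± 104 and the proton pump gene Atp4a at 559 ± 55.5 (mean ± SD, n = 2). Values below are mean ± SD of the 2 pups unless a pup is named.

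A dividing cell passes from G1, where D and E cyclins lead the retinoblastoma protein to release E2F transcription factors, into S phase, where MCM helicases and the clamp PCNA copy the DNA. Cyclin B with its kinase CDK1 then opens mitosis, and many genes of mitosis are transcribed together late in the cycle, through promoters that hold a CHR element and CCAAT boxes and are bound by the DREAM and MuvB complexes with B-Myb and FoxM1. In the newborn stomach, dividing cells lie in the young glands, the basal layer of the squamous forestomach and the growing wall.

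Promoter stretches of 5 mitotic genes and 2 replication genes are shown because the comparison of the pups turns on these classes. Each is the 150 bases before the RefSeq start, 5′ to 3′ on the strand of the gene, on build GRCm38.p6. Capitals mark the letters searched on both strands: a CHR element (TTTGAA or a variant), a CCAAT box, which is named by its letters, or an E2F site (TTTGGCGC, TTTCGCGC, TTTCCCGC or TTTGCCGC). Mki67 was added for its wide use as a marker of dividing cells, after its values were seen.
Cdk1, chr10:69352913-69353062, minus strand: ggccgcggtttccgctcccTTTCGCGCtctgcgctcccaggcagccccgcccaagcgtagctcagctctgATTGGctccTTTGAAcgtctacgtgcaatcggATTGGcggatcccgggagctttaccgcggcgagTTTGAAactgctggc
Ccnb1, chr13:100786487-100786636, minus strand: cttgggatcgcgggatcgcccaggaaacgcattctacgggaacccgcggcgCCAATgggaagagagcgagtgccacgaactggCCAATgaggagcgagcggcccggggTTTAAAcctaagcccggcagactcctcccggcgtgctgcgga
Cdc20, chr4:118437344-118437493, minus strand: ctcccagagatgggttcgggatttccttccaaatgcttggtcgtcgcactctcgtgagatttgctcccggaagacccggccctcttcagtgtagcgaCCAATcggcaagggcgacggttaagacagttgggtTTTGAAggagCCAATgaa
Top2a, chr11:99024190-99024339, minus strand: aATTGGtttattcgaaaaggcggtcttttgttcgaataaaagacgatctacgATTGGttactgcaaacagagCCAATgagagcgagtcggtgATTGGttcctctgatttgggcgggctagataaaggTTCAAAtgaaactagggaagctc
Mki67, chr7:135716380-135716529, minus strand: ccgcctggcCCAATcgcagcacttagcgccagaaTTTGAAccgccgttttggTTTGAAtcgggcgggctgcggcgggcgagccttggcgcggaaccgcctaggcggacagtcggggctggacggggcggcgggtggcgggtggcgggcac
Pcna, chr2:132253181-132253330, minus strand: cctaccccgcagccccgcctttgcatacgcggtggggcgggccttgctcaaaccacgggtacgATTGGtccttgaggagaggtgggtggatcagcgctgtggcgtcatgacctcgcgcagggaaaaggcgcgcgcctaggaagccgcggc
Mcm6, chr1:128359706-128359855, minus strand: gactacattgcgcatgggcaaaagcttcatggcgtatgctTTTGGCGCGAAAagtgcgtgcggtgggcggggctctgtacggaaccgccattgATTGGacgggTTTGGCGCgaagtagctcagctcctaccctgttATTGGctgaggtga

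Besides the form given above, TTTAAA was searched as a CHR element. The CHR letters began 71 and 15 bases before the start in Cdk1, 42 bases in Ccnb1, 18 in Cdc20, 23 in Top2a and 116 and 98 in Mki67. They were not found in the stretches of Pcna and Mcm6, while Mcm6 held 3 E2F matches, of which 2 overlap. The RefSeq promoter table used here held windows for 33 of the 43 members, from 250 bases before to 50 after the start. Ccnd1, Ccnd2, Ccne2, Mcm4, Gmnn, Ccna2, Aurkb, Tpx2, Kif20a and Rb1 were not matched in it. Of the 15 mitotic windows, 13 (86.7%) held the CHR letters, against 27.6% of all 32851 windows of the same length and 4 of 13 windows of 12 replication genes. A CCAAT box stood in 13 of 15 mitotic windows, in 10 of 13 replication windows and in 37.4% of all windows. Both motifs stood together in 12 of 15 mitotic windows (80.0%), in 4 of 13 replication windows and in 10.7% of all windows. E2F letters showed the other order, in 1 of 15 mitotic windows, 6 of 13 replication windows and 2.26% of all windows. These matches describe letters and do not show that a factor binds there.

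The 2 pups differed in their mitotic genes. All 19 mitotic members were lower in pup 2, and 13 of them were called lower beyond quantification error, among them the mitotic kinase gene Cdk1, the cyclin Ccnb1 and the proliferation marker Mki67. None of the 14 replication genes, 6 G1 genes and 4 brakes was called in either direction. A gene was called where the 95% credibility intervals that the authors deposited for its TPM did not overlap, and where TPM + 1 in the higher pup exceeded that in the lower by at least 25%. Genes with a mean of at least 100 expected counts were tested. By that rule 1.95% of 13951 tested genes were called lower and 2.63% higher in pup 2, and 0 members were called higher. Differences are given as log2((TPM of pup 2 + 1)/(TPM of pup 1 + 1)), so a negative value is lower in pup 2, and low genes are understated. With 1 library per pup, this compares 2 libraries without a replicate check, and no test was possible. In RNA of a whole organ, fewer cells with RNA of mitotic genes and less of that RNA per cell cannot be told apart.

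The median TPM of the mitotic class was 20.7 for pup 1 against 16.2 for pup 2. Its median log2 ratio was -0.38, which is 1.30-fold lower in pup 2, and its members ranged from -0.50 to -0.13. The median over all tested genes was 0.03, and 41.4% of them were lower in pup 2. Of the 19 members, 12 lay below the range that holds the middle 95% of tested genes, -0.34 to 0.37. Among 9450 tested protein-coding genes in the TPM range of the mitotic members, the median ratio was 0.03 and 200 were called lower. The summed TPM of the class was 590.5 in pup 1 and 443.3 in pup 2, while the replication class summed to 445.4 and 444.2.

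**Figure D1:**
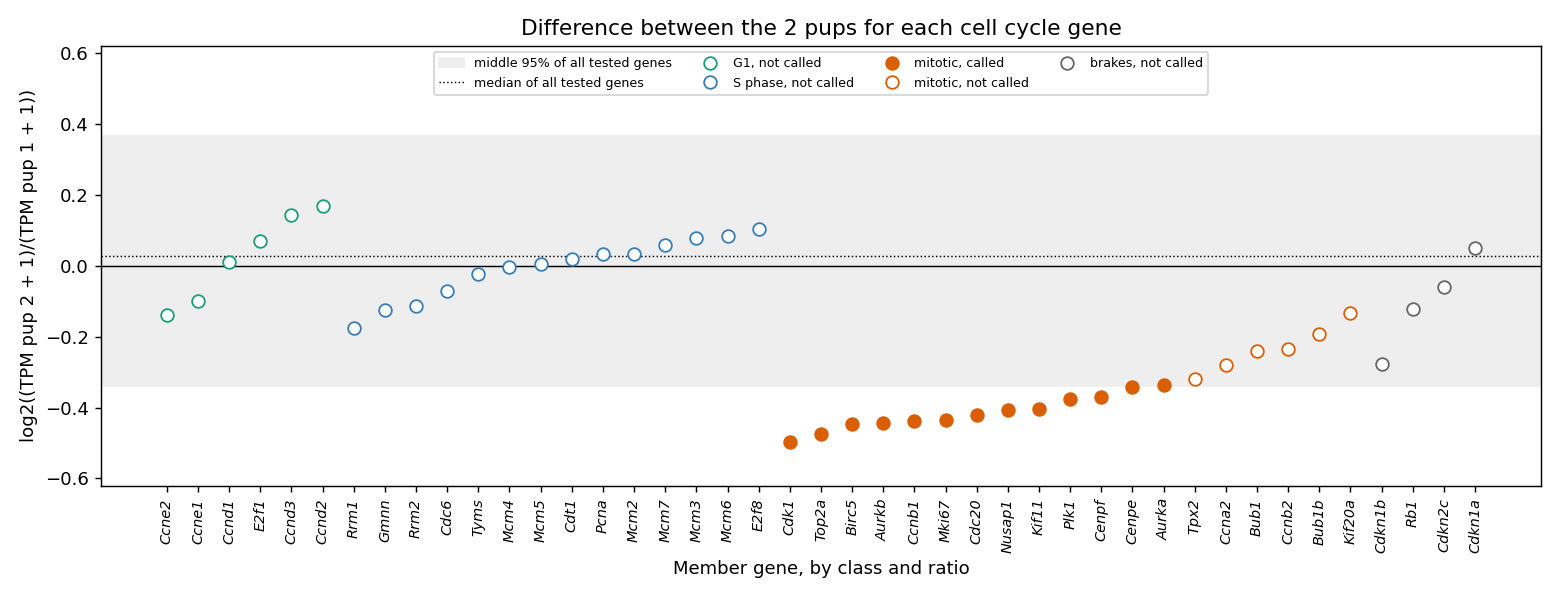
Difference between pups for each of the 43 genes, as log2((TPM pup 2 + 1)/(TPM pup 1 + 1)) on the vertical axis, by class and ratio. Filled points were called beyond quantification error, the grey band holds the middle 95% of all tested genes (-0.34 to 0.37) and the dotted line is their median. All 19 mitotic genes lie below 0 and 13 are filled, and no point of another class is filled.

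Cyclin B and its kinase stood high. Where 2 values of a gene follow each other, pup 1 comes before pup 2. Cdk1, the kinase that opens mitosis (ENSMUSG00000019942.8), reached a TPM of 125.75 in pup 1 (interval 117.5 to 130.55), against 88.8 in pup 2 (82.5 to 93.3), from 4555 and 3261 counts. Its log2 ratio was -0.50, the lowest of the 43 members on the TPM + 1 scale, and its level was the highest of its class. By plain TPM, Mki67 differed slightly more (1.43-fold against 1.42-fold for Cdk1). Ccnb1, the cyclin B1 partner of CDK1 (ENSMUSG00000041431.12), stood at 40.4 in pup 1 against 29.5 in pup 2, a ratio of -0.44. The second B cyclin, Ccnb2, stood at 39.5 and 33.4. Its ratio of -0.24 was smaller in size than that of Ccnb1, and it was not called, although its intervals did not overlap. Ccna2, cyclin A2 of S phase and early mitosis, stood at 34.5 and 28.3, a ratio of -0.28, and was not called either.

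The kinases that act beside CDK1 were all lower in pup 2. Plk1, a kinase of mitotic entry and the centrosome, had a TPM of 23.3 and 17.8 and a ratio of -0.38. Aurka, the aurora kinase of the spindle poles, stood at 20.7 and 16.2 (-0.34). Aurkb, the aurora kinase of the chromosomal passenger complex, stood at 29.2 and 21.2 (-0.44). All 3 were called. Birc5, which encodes survivin, a partner of aurora B, was the second highest mitotic gene with 78.7 in pup 1 against 57.5 in pup 2. Its ratio of -0.45 was close to that of its partner Aurkb.

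Genes of chromosomes and spindle followed. Top2a, the topoisomerase that untangles sister chromatids, had a TPM of 37.9 and 27.0, a ratio of -0.47. Mki67, which encodes the Ki-67 protein that coats mitotic chromosomes, stood at 6.73 and 4.72 (-0.43). The motor gene Kif11, which pushes spindle poles apart, stood at 8.71 and 6.34 (-0.40). Nusap1, a microtubule-binding protein of the spindle, stood at 20.3 and 15.1 (-0.41). These 4 genes were called, as were the kinetochore motor gene Cenpe at 4.21 and 3.11 (-0.34) and the kinetochore gene Cenpf at 18.4 and 14.0 (-0.37). Tpx2, a spindle assembly factor, stood at 14.8 and 11.7 with a ratio of -0.32, and its intervals overlapped. Kif20a, a motor of cytokinesis, had the smallest difference of the class, with 14.1 and 12.7 and a ratio of -0.13.

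The spindle checkpoint was split between called and uncalled genes. Cdc20, the activator of the anaphase-promoting complex, had a TPM of 57.9 and 43.01, a ratio of -0.42, and was called. The checkpoint kinase genes Bub1 (5.60 and 4.59) and Bub1b (9.75 and 8.40) had ratios of -0.24 and -0.19, with overlapping intervals. Of the 19 mitotic genes, 16 had intervals that did not overlap, against 8.33% of tested genes lower by that rule alone. No member was called at 1.5-fold, where 0.315% of tested genes were called lower and 0.48% higher.

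**Figure D2:**
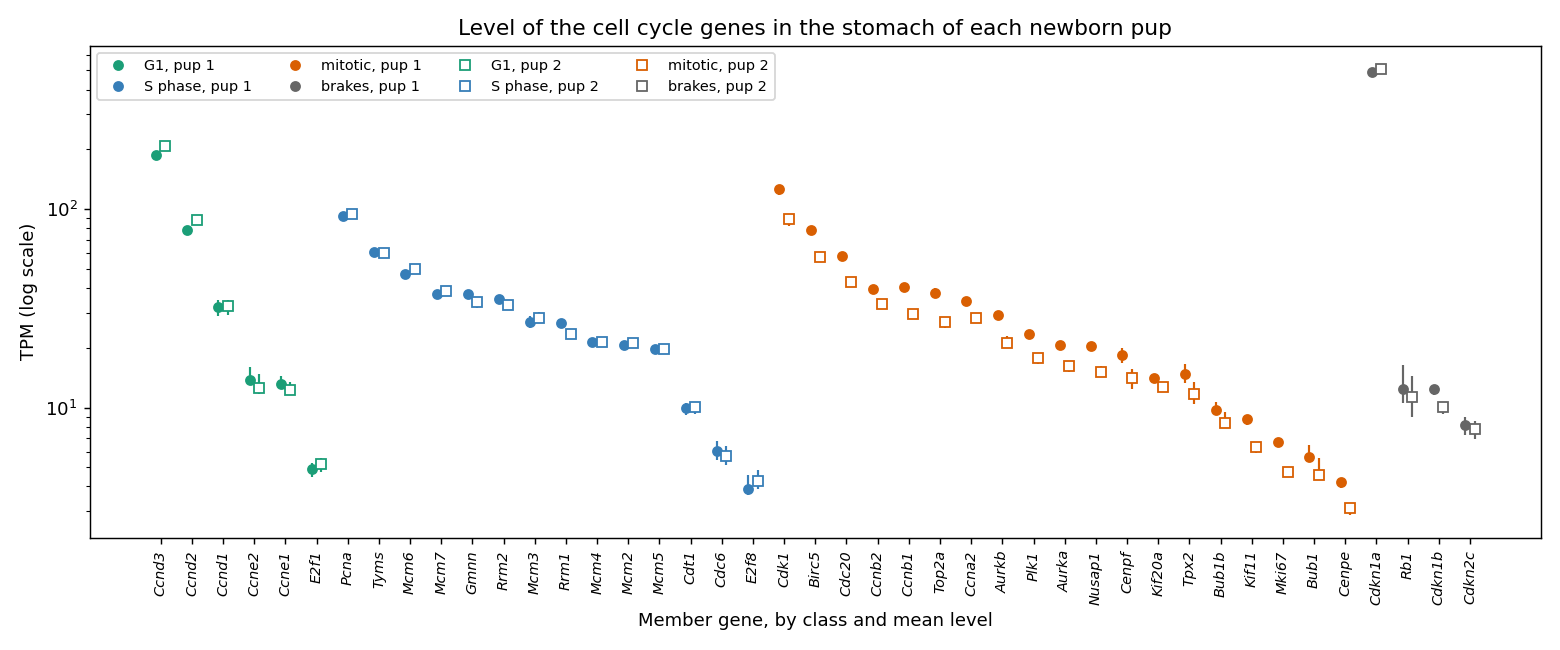
TPM of each of the 43 genes (log axis) in pup 1 (filled circles) and pup 2 (open squares), with the deposited 95% credibility intervals as vertical lines, by class and mean level. Pup 1 stands above pup 2 in every mitotic gene, from Cdk1 at 125.75 and 88.8 to Cenpe at 4.21 and 3.11, and the pups nearly coincide in most replication genes.

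The replication genes stood close together in the pups. Their median TPM was 26.8 for pup 1 against 26.0 for pup 2, and their median log2 ratio was 0.01, with a range from -0.18 to 0.10. Of the 14, 6 were lower and 8 higher in pup 2. Of the 19 mitotic genes, 18 lay below the lowest replication gene, and 15 lay below every one of the 24 members outside their class. Counted in protein-coding transcripts alone, as described below for the mitotic genes, 12 lay below the lowest replication gene, which was then Tyms (4.84 and 3.65, ratio -0.33), and 8 of the 14 replication genes were lower. This order is a description, with no test.

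The 6 MCM genes encode the subunits of the ring-shaped replicative helicase. Mcm6 led them with a TPM of 47.1 and 50.03, and Mcm7 followed with 37.3 and 38.8. Mcm3 stood at 26.9 and 28.4, and Mcm4, Mcm2 and Mcm5 lay close together at 21.3 ± 0.0424, 20.9 ± 0.368 and 19.8 ± 0.0495. The highest mean was 2.45 times the lowest. Protein-coding transcripts held 70.6% and 65.0% of the TPM of Mcm3. In those alone Mcm3 was the lowest of the 6, at 19.0 and 18.5 (ratio -0.04), and the highest mean was 2.59 times the lowest. No ratio of the 6 genes was farther from 0 than the 0.09 of Mcm6, and Mcm6 alone had intervals that did not overlap, higher in pup 2. The factors that load the ring were less abundant. Cdc6 stood at 6.03 and 5.69 and Cdt1 at 9.96 and 10.1. Gmnn, which encodes geminin, the inhibitor of CDT1, stood higher at 37.2 and 34.0.

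Pcna, the sliding clamp of the DNA polymerases (ENSMUSG00000027342.10), was the highest replication gene, with a TPM of 92.1 and 94.2. Its intervals, 88.4 to 93.6 and 90.4 to 95.8, overlapped. Tyms, the thymidylate synthase gene, stood at 61.05 and 60.1. The ribonucleotide reductase genes, which make deoxynucleotides, were lower in pup 2. Rrm2 stood at 35.4 and 32.7 (-0.11) and Rrm1 at 26.8 and 23.6 (-0.18). Their intervals did not overlap, yet neither reached a difference of 25%. E2f8, a repressor made in S phase, was the lowest gene of the class at 3.90 and 4.26, and its ratio of 0.10 was the highest.

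Of the 6 G1 genes, 4 were higher and 2 lower in pup 2, none of them called. D cyclins, which activate CDK4 and CDK6, made up the top of the class. Ccnd3 (ENSMUSG00000034165.12) had a TPM of 187 and 207, with intervals of 183.0 to 190.6 and 202.5 to 210.5. Ccnd2 (ENSMUSG00000000184.9) stood at 78.5 and 88.4. These had the highest ratios of all 43 members, at 0.14 and 0.17, with separate intervals but a difference under 25%. Separate intervals alone were seen higher in pup 2 in 12.9% of tested genes. Ccnd1, the third D cyclin, stood at 32.2 and 32.4. The E cyclins, which start S phase with CDK2, were lower in level at 13.2 ± 0.962 for Ccne2 and 12.7 ± 0.672 for Ccne1, and E2f1 stood at 5.05 ± 0.205. Their ratios were -0.14, -0.10 and 0.07, with overlapping intervals in all 3.

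Among the brakes, Cdkn1a was the most abundant of all 43 members. It encodes an inhibitor of cyclin-dependent kinases that the p53 protein induces and that rises in many cells leaving the cycle. Its TPM was 494 and 511 (ENSMUSG00000023067.9), 2.55 times that of Ccnd3, the next gene. Its ratio was 0.05. The related inhibitor Cdkn1b stood at 12.4 and 10.1, a ratio of -0.28 with separate intervals, the lowest outside the mitotic class, though not called. Cdkn2c, an inhibitor of CDK4 and CDK6, stood at 8.19 and 7.82. Rb1, the retinoblastoma gene, stood at 12.4 and 11.3, with wide intervals of 10.6 to 16.3 and 9.01 to 14.4. Its direction was the opposite by expected counts, 747 and 824, and by coding TPM, 3.35 and 4.05 (ratio 0.22).

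The deposited transcript tables divide each gene's TPM among its transcripts, and for most members nearly all of it lay in protein-coding ones. The share was at least 90% in both pups in 32 of the 43 genes and under 50% in 2, Tyms and Rb1. Tyms had only 7.93% and 6.08% of its TPM in protein-coding transcripts. Its main transcript is annotated as a target of nonsense-mediated decay and is 797 bases long, and it held 45.9% and 44.5%. In Rb1 a processed transcript of 408 bases held 64.8% and 51.8%. The gene-level TPM of these 2 genes is thus mostly not coding RNA as quantified. TPM is scaled for length, so a short transcript takes a larger share of TPM than of reads. By expected counts, the coding transcript of Rb1 held 631 of 747 and 733 of 824. The 408-base transcript held 103 and 71.9 counts. The coding transcript of Tyms held 614 of 2590 and 445 of 2408. Ccnd1 had 53.5% and 54.2% of its TPM in its coding transcript, and the rest in a retained intron form of 470 bases. By expected counts its coding transcript held 2589 of 2818 and 2536 of 2755.

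Cdk1, Top2a and Cenpf were the mitotic genes with the lowest coding shares. Protein-coding transcripts held 62.1% and 66.9% of the TPM of Cdk1, 60.0% and 57.0% of Top2a and 56.4% and 60.0% of Cenpf. Their shares of expected counts were larger. The main coding transcript held 3523 of 4555 and 2573 of 3261 counts in Cdk1, and 4812 of 5235 and 3133 of 3455 in Top2a. Counted in those transcripts alone, a choice made after seeing the data, Cdk1 had a TPM of 78.1 and 59.4, a ratio of -0.39. Top2a then had -0.53, the lowest of the class on that count, and Cenpf -0.27. The value of Cenpf includes a coding transcript of 358 bases, with a TPM of 0 and 0.84 from 0 and 8.69 expected counts. Its coding transcripts of 3001 and 11130 bases had ratios of -0.38 and -0.33. All 19 mitotic genes stayed lower in pup 2 in protein-coding transcripts alone, with the same median of -0.38. Of the 32 members with 2 or more transcripts, 31 kept 1 main transcript across the pups, and the exception was Cdkn2c, whose 2 transcripts held nearly equal shares.

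**Figure D3:**
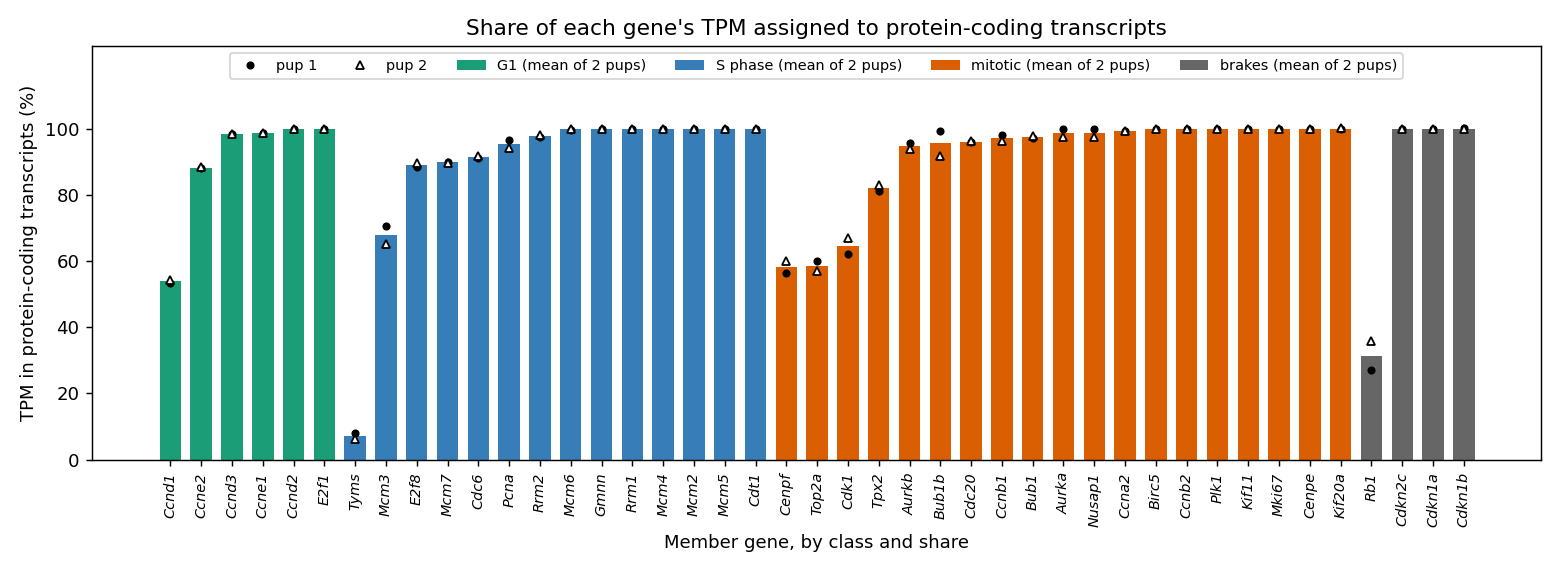
Share of each gene's TPM assigned to protein-coding transcripts (%), as bars for the mean of the 2 pups with a circle for pup 1 and a triangle for pup 2, by class and share. Tyms (7.93% and 6.08%) and Rb1 (27.0% and 35.8%) stand lowest, and 32 of the 43 genes lie at 90% or more in both pups.

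A further 149 cell cycle genes, sorted into the same classes, show the pathway around the members. For these lists, the shares over all tested genes are 41.4% lower, 1.95% called lower and 2.63% called higher in pup 2. Of 58 other mitotic genes, 54 were lower in pup 2 and 17 were called lower, with 0 called higher. Their median ratio was -0.25 and their median TPM 11.8 and 9.43. Ube2c, which loads ubiquitin for the anaphase-promoting complex, stood at 89.3 and 63.6 (-0.48). The CDK-binding genes Cks1b (154 and 135) and Cks2 (110 and 83.5) had ratios of -0.19 and -0.39, and the chromatin gene Hmgb2 stood at 119 and 95.8 (-0.31). Of these, Ube2c and Cks2 were called. The lowest ratios were those of Ckap5, a microtubule polymerase, at 25.8 and 16.3 (-0.63), and of G2e3, at 9.77 and 6.13 (-0.60), which alone were called at 1.5-fold. Both differed less by counts, with 2408 and 1879 for Ckap5 and 1529 and 1088 for G2e3, and in protein-coding transcripts alone their ratios were -0.03 and -0.32. Those transcripts held only 23.3% and 35.9% of the TPM of Ckap5. The highest ratios were 0.03 for Cdc25b, which encodes a phosphatase that activates CDK1, 0.02 for Cdca2 and 0.01 for Mybl2, the gene of B-Myb.

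The other replication genes were closer between the pups. Of 48, 32 were lower and 16 higher in pup 2, with a median ratio of -0.07, and 3 were called lower and 0 higher. Those called were Usp1, a deubiquitinase of DNA repair (34.5 and 23.9, ratio -0.51), the checkpoint adaptor gene Clspn (7.52 and 5.01, -0.50) and Wdr76 (2.93 and 2.04, -0.37). Usp1 differed less by counts, at 2503 and 2276. Exo1, a nuclease of DNA repair, had -0.43 with overlapping intervals. The most abundant were Slbp, which binds histone mRNA, at 76.2 ± 1.16, the nucleotide pyrophosphatase gene Dctpp1 at 70.5 ± 2.84 and Tipin, of the fork protection complex, at 57.8 ± 1.92, none of them called. At the upper end Orc1 had 0.34 and Dtl 0.18, also uncalled. The direction of Orc1 was the opposite by expected counts, 184 and 180, and by coding TPM, 1.53 and 1.39 (ratio -0.08).

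The other G1 genes were evenly divided, with 12 of 23 lower and 11 higher in pup 2, a median of 0.00, 0 called lower and 1 called higher. That gene was Myc, a transcription factor that promotes growth and G1 progression, at 41.9 and 56.4, a ratio of 0.42. Cdk4, the kinase of the D cyclins, was the highest at 394 ± 2.54, and Tfdp1, a partner of E2F proteins, stood at 54.2 ± 1.65. Protein-coding transcripts held only 34.0% and 33.3% of the TPM of Cdk4, which is 133 and 132. E2f7 had the lowest ratio of -0.54 with overlapping intervals (4.47 and 2.76), followed by E2f3 (-0.23) and Skp2 (-0.16), while E2f2 had 0.38 and E2f4 0.28. In protein-coding transcripts alone the ratios were -0.21 for E2f7, 0.09 for E2f3, -0.18 for Skp2, 0.22 for E2f2 and 0.28 for E2f4. The direction of E2f3 was the opposite by expected counts too, 389 and 407. The 20 other brakes had a median of 0.01, with 8 lower, 12 higher and 0 called in either direction. Cdkn1c, an imprinted inhibitor of cyclin-dependent kinases, led them at 119 ± 8.44, followed by the p53 target genes Phlda3 at 78.7 ± 0.643 and Btg2 at 78.4 ± 6.67. Cdkn2d (-0.26), Ccng2 (-0.18) and Gadd45a (-0.18) had the lowest ratios of this list, and Mdm2 (0.23), Chek1 (0.20) and Wee1 (0.19) the highest. Protein-coding transcripts held only 25.7% and 15.4% of the TPM of Chek1. In those alone its ratio was -0.31, while its expected counts were higher in pup 2, at 452 and 533.

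**Figure D4:**
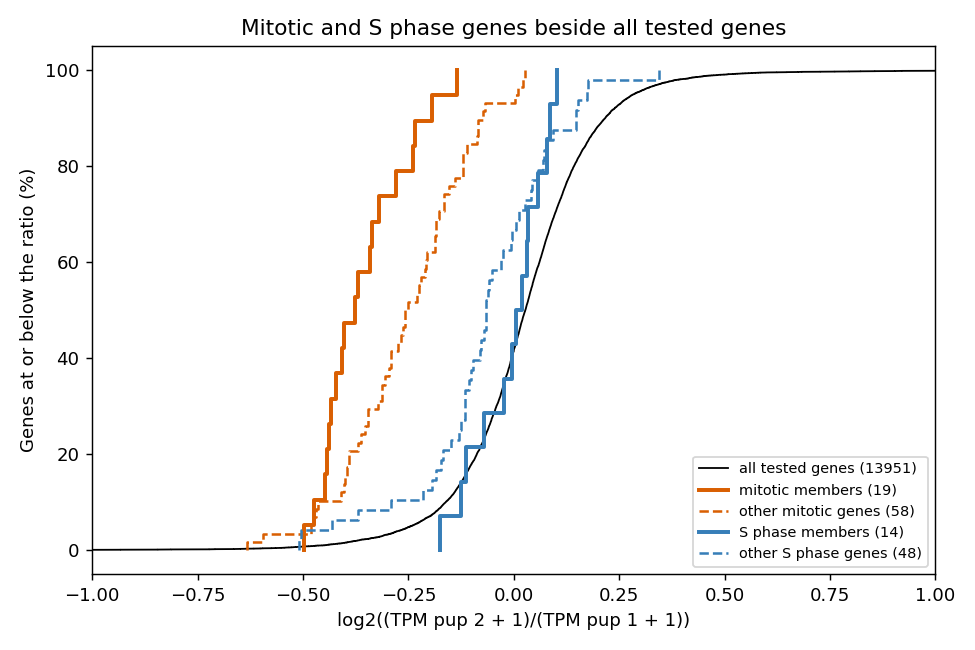
Cumulative share of genes (%) at or below each log2((TPM pup 2 + 1)/(TPM pup 1 + 1)), for the 19 mitotic and 14 replication members (solid), the other 58 mitotic and 48 replication genes (dashed) and all 13951 tested genes (black). Both mitotic curves lie left of the black curve, with medians of -0.38 and -0.25, and the replication members lie near it with a median of 0.01.

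Of the 272 tested genes called lower in pup 2, 13 were mitotic members, 17 other mitotic genes and 3 other replication genes. Together these were 12.1% of the called genes and 17.2% of the 192 listed cell cycle genes. Members and list were chosen with earlier results of these data known, so these shares are descriptions only.

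Markers of other cells also differed between the pups. All 6 smooth muscle markers were lower in pup 2 and 4 were called, with a median ratio of -0.37 and a summed TPM of 8426 in pup 1 and 6780 in pup 2. All 6 liver markers were higher and 5 were called, with sums of 128 and 196. All 6 markers of the squamous basal layer, where forestomach cells divide, were higher, with 1 called (Col17a1, 0.49) and sums of 1368 and 1569. All 5 markers of the squamous upper layers were higher, with 0 called and sums of 22747 and 23902. Of 6 stomach lining markers, 4 were higher and 2 lower, with 0 called and sums of 23843 and 24147. Over all tested genes, 1.95% were called lower and 2.63% higher. Gastric progenitor markers (3 of 6 lower, sums 401 and 385), fibroblast (3 of 6 lower, 2883 and 2861), endothelium (2 of 5 lower, 121 and 128) and macrophage markers (1 of 5 lower, 135 and 138) had no called gene. Markers of red cell precursors, a dividing population at birth, were low, with sums of 5.88 and 7.42 over 7 genes. Most of that came from Alas2, of heme synthesis, at 3.97 and 4.69, which is near the level of Cenpe, and the factor gene Klf1 stood at 0.44 and 0.70. Lymphocyte markers summed to 2.47 and 2.16, nearly all of it from Ptprc, a gene of all white blood cells, at 2.11 and 1.53, while the T cell gene Cd3e stood at 0.02 and 0.13. The part of these differences in that of the mitotic genes was not tested.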

How the data were processed

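Total RNA of 2 newborn stomachs, 1 library per pup, was sequenced. Per the labels' protocols, libraries were made from 10 ng of RNA above 200 nucleotides. The authors deposited gene and transcript tables on mm10 with annotation M4, as the notes beside each file state. The sources used here name neither the aligner nor the quantification program, nor whether strand was used. The deposited expected counts are estimated reads, unscaled. The deposited TPM values are scaled for length and depth over all 69691 features, and come with posterior means and 95% credibility interval bounds. These bounds surround the posterior mean, so that the TPM of Ccnd2 in pup 2 lies just above its own. The deposited isoform percent is a transcript's share of its gene's TPM. Since the use of strand is not stated, overlapping genes on opposite strands may share reads.

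Symbols and transcript types came from GENCODE M21, matched on IDs without version (42462 of 43346 genes). Ratios, intervals and calls were computed over all Ensembl genes with a mean expected count of at least 100 with pandas 2.3.3, using a pseudocount of 1. TMM factors (edgeR 4.0.16) and size factors (DESeq2 1.42.0) of counts rounded to whole numbers served the alternatives. Promoter windows came from RefSeq. The members, classes and lists were chosen with earlier results of these data known. Text names the 3 highest members of each class, the 5 lowest and 5 highest ratios, and the 3 highest levels and extreme ratios of each other list, and other members by class. A few genes that this rule or the marker lists hold are not reported here. Precision is limited by 2 pups. Intervals cover quantification error only, not differences between animals or library preparations. PCR reads are not independent molecules, so the intervals may be too narrow.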

Additional observations from a re-analysis of the deposited data

How the results depend on the processing

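The median ratio of the mitotic members ranged from -0.47 with DESeq2-scaled counts to -0.38 as reported, and all 19 were lower with TMM-scaled CPM, DESeq2-scaled counts, posterior mean TPM, a pseudocount of 0.1 and the median of protein-coding genes set to 0, a shift of 0.03. The median of the replication members lay between -0.04 and 0.01, and so changed sign around 0. Those of the G1 members (0.01 to 0.08) and brakes (-0.12 to -0.00) kept theirs. The count of members lower in pup 2 was 13 as reported, 0 at 1.5-fold, 0 at 2-fold and 19 by intervals only. With Poisson intervals of TMM-scaled counts it was 16, of which 15 were mitotic. The share of all genes called by the Poisson rule is not given here. The count higher in pup 2 was 4 by intervals only and 0 otherwise. Median TPM over nuclear protein-coding genes was 21.8 for mitotic, 31.3 for replication and 26.9 for G1 members and 13.7 for brakes, higher by construction, against 18.4, 26.4, 22.7 and 11.6 as reported. With protein-coding transcripts only, an alternative chosen after seeing the data, it was 21.1 for replication and 14.9 for G1 members and 9.63 for brakes. Pup 1 alone gave 20.7 for mitotic, 26.8 for replication and 23.0 for G1 members and 12.4 for brakes. Pup 2 alone gave 16.2, 26.0, 22.4 and 10.7 in the same order. All 43 members were detected in each pup alone and 38 at a TPM of at least 5. No paired analysis was possible because the series has 1 group. With 1 library per pup, no difference has a replicate check.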

Other observations

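Histone genes, whose mRNA is made in S phase and lacks a poly(A) tail in its replication-dependent form, differed from the other genes of replication. Of 64 protein-coding genes with a Hist1 to Hist4 symbol, 22 had enough counts. Of these, 19 were lower in pup 2 and 12 were called lower, with a median ratio of -0.53. Over all tested genes, 41.4% were lower and 1.95% were called lower. The 14 replication members had a median of 0.01 with none called, in the same libraries and by the same rule. Of the 48 other replication genes, 32 were lower and 3 called lower, with a median of -0.07. Slbp, whose protein binds the end of these mRNAs, was close between the pups, with a TPM of 77.04 and 75.4. Reads of near-identical histone copies are hard to assign to 1 copy, so values of single histone genes are uncertain.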
